A study of Homo sapiens with 8 samples.

Results

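MALAT1 and NEAT1 are neighbouring long noncoding RNAs that stay in the nucleus, and both are known ligands of TDP-43, an RNA-binding protein that prefers UG-rich sequence and is found in aggregates in amyotrophic lateral sclerosis. They were chosen by 3 Ensembl transcript identifiers, 1 for MALAT1, 1 for the long and 1 for the short isoform of NEAT1. The tables analysed here list 38314 transcripts, and 2 of the 3 identifiers are among them: ENST00000501122.2, the long NEAT1 isoform, and ENST00000499732.3, the short one. The MALAT1 identifier ENST00000534336 was not listed in either table. It was the only MALAT1 identifier looked for, and other MALAT1 transcripts could be listed under identifiers that were not paired with genes here. No value for MALAT1 is given, and the results below concern NEAT1.

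NEAT1 is the architectural RNA of paraspeckles, nuclear bodies built by RNA-binding proteins such as NONO and SFPQ along its long isoform. Both isoforms start at the same promoter. The short isoform ends at an early polyadenylation site and carries a poly(A) tail, whereas the long isoform reads through that site and ends in a triple helix with a genome-encoded A-rich tract, as MALAT1 does. MALAT1 lies in nuclear speckles and is known for its part in pre-mRNA splicing. The short NEAT1 isoform corresponds to the 5' part of the long one, so reads from their common stretch cannot be assigned to 1 of them by sequence alone. In RefSeq (GRCh38.p14) NEAT1 covers chromosome 11 from 65422798 to 65445540, a span of 22743 bases, and MALAT1 covers 65497738 to 65506516 on the same chromosome, beginning 52197 bases after the end of NEAT1.

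The cells were HEK293T, a human embryonic kidney line, either control cells labelled WT or cells labelled TDP-43 knockdown. How the knockdown was made is not given in the sources used here. Cells were probed in PBS for 15 min at 37 °C with 100 mM NAI, which acylates the 2'-hydroxyl of flexible nucleotides, or with 5% DMSO as the unprobed background, and each of the 4 combinations had 2 replicates. Modified positions were read as stops of reverse transcription in poly(A)-selected RNA, an assay called SHALiPE-seq, and the title of the study concerns RNA G-quadruplexes, folds of guanine-rich RNA, as a structure that TDP-43 binds. Poly(A) selection bears on the RNAs described here, because the long NEAT1 isoform and mature MALAT1 lack a conventional poly(A) tail. The part of this selection in the values or in the absence of this MALAT1 identifier was not tested.

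For each transcript and condition 1 combined value was available of the average, the maximum and the standard deviation of reactivity along the transcript, and of the Gini index. The Gini index measures how unevenly reactivity is shared among positions, with 0 for equal values everywhere and values near 1 where a few positions hold nearly all of it. The reactivity scale is not stated, no read counts or values per replicate were present, and the depth is therefore unknown. The differences below therefore have no replicate error, and they were not tested for significance. In place of a test, these measures are given for each isoform with their percentile among all transcripts, that is, the percent of transcripts with a lower value.

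In TDP-43 knockdown the long NEAT1 isoform was less reactive on average and its reactivity was more unevenly spread, while the short isoform kept nearly its average and was more evenly reactive. The average of the long isoform was 0.194 in control cells and 0.150 in knockdown cells, 1.30-fold lower. Its Gini index was 0.806 in control cells and 0.860 in knockdown cells. The average of the short isoform was 0.269 in control cells and 0.257 in knockdown cells, 1.04-fold lower. Its Gini index was 0.689 in control cells and 0.627 in knockdown cells. On the deposited scale the 2 isoforms thus differed in the same direction in average reactivity and in opposite directions in evenness. The short isoform's average difference of -0.011 was -0.0048 with each measure set to an equal median over all transcripts in both conditions. It was 0.036 with the knockdown average read from its coefficient of variation on a curve fitted to control transcripts. That reading uses the measured knockdown average only within the coefficient of variation and takes the level from control transcripts, so it cannot decide the direction. With 1 combined value per condition, the direction of so small a difference remains uncertain.

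The long isoform had an average near the middle of all transcripts in control and lower in the order in knockdown. Its average stood at percentile 52.4 in control and 32.5 in knockdown. Its difference of -0.045 was lower than that of 34906 transcripts and higher than that of 3407. A decrease of at least 1.1-fold was common, with 40.4% of all transcripts past it, so passing this limit does not set the isoform apart. It did not reach 1.5-fold lower, which 2.39% of transcripts did.

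The 2 measures of unevenness placed the long isoform differently among all transcripts. Its Gini index stood at percentile 41.1 in control and 51.4 in knockdown. The Gini index difference of 0.055 was larger than that of 37225 of the other transcripts, at percentile 97.2. The ratio of knockdown over control was 1.07, short of the 1.1-fold limit that 0.83% of transcripts passed upwards. Like the Gini index, the coefficient of variation, the standard deviation over the average, does not depend on a common factor in the unstated scale. It was 1.93 in control cells and 2.36 in knockdown cells, and this difference of 0.427 stood at percentile 79.6. Given the average and standard deviation, at least 21.1% of its positions must have carried reactivity in control and at least 15.2% in knockdown, or 4793 and 3457 positions.

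The highest single position of the long isoform was close in both conditions. Its maximum was 2.87 in control cells and 2.80 in knockdown cells, at percentile 66.1 and 56.3. The ratio was 0.975, and both values were below the ceiling of 7 at which both tables stop. The maximum was 14.8 times the average in control and 18.7 times in knockdown. Its standard deviation was 0.376 in control cells and 0.353 in knockdown cells, at percentile 42.3 and 16.6. Neither measure passed 1.1-fold lower, which 15.3% of all transcripts did in maximum and 27.1% in standard deviation. With each measure set to an equal median in both conditions both passed it, at 1.146-fold lower in maximum and 1.26-fold lower in standard deviation. The factor differs between measures, so this places the isoform among other transcripts and does not correct the reactivity scale.

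The short isoform was among the more reactive and more even transcripts in both conditions. Its average stood at percentile 90.1 in control and 69.4 in knockdown, and its Gini index at percentile 10.3 and 12.5. The Gini index was thus lower in knockdown while its place among all transcripts was slightly higher. The difference in Gini index was -0.061, a 1.098-fold decrease just short of the 1.1-fold limit, which 13.2% of transcripts passed downwards. Relative to the median Gini index of all transcripts in each condition, the decrease was 1.12-fold and passed it. A common factor on reactivity would leave the Gini index unchanged, so this is not a correction of scale. The coefficient of variation was 1.37 in control cells and 1.20 in knockdown cells. At least 34.8% of its positions carried reactivity in control and at least 41.2% in knockdown, or 1192 and 1408 positions.

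Low peaks and a low spread marked the short isoform. Its maximum was 1.61 in control cells and 1.64 in knockdown cells, at percentile 7.05 and 6.67. Its standard deviation was 0.368 in control cells and 0.308 in knockdown cells, 1.19-fold lower, past a limit of 1.1-fold that 27.1% of all transcripts passed. In the order of all transcripts the standard deviation stood at percentile 24.8 in control and 4.55 in knockdown. In its length class, described below, 0.161% of transcripts had a lower standard deviation in knockdown.

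**Figure D1:**
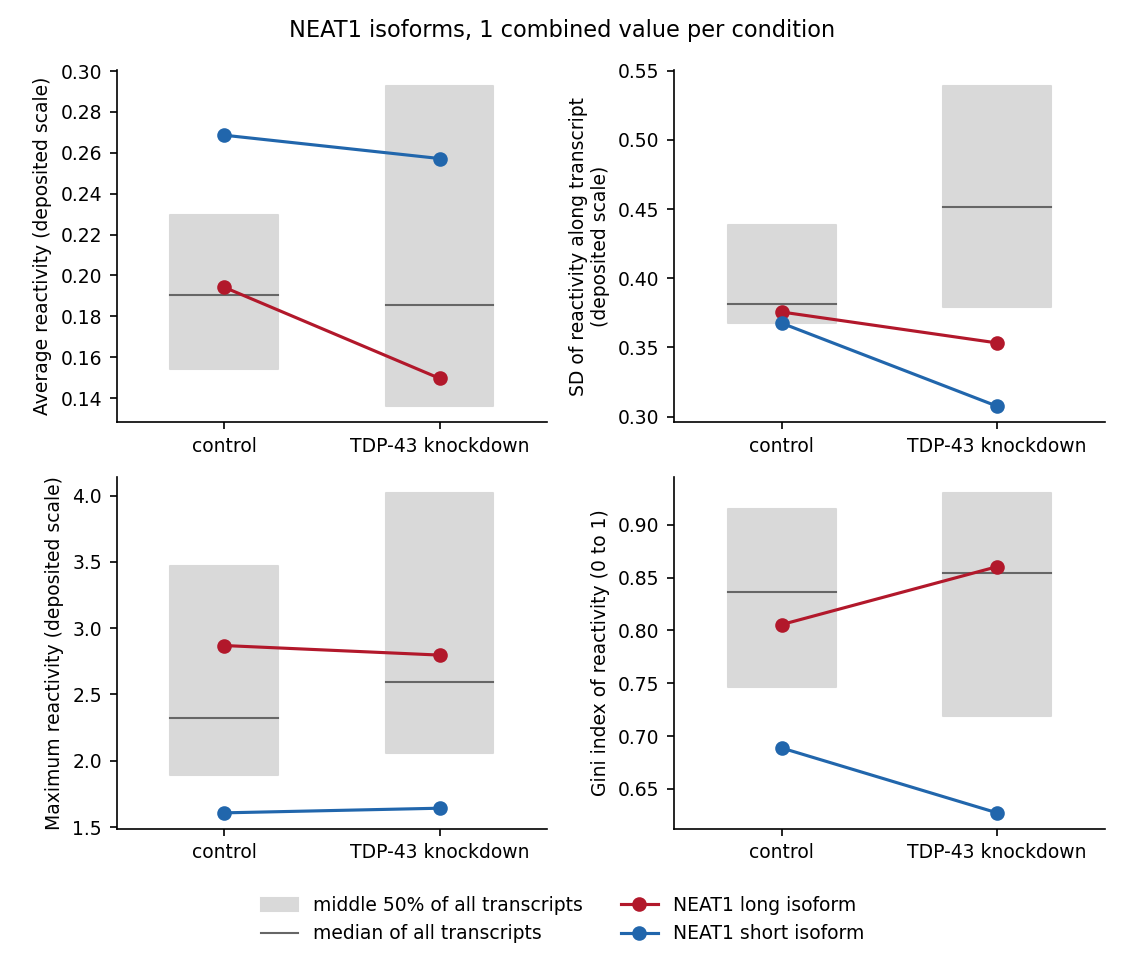
Average reactivity, standard deviation along the transcript, maximum reactivity and Gini index (vertical axes, reactivity on the deposited scale) in control and TDP-43 knockdown for both NEAT1 isoforms, with 1 combined value per point and no error. Grey boxes span the middle 50% of all 38314 transcripts and grey lines their median; the Gini index of the long isoform runs from 0.806 to 0.860 and that of the short isoform from 0.689 to 0.627.

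The isoforms were further apart in knockdown in the ratio of their averages and in the Gini index, but not in their maxima. The average of the long isoform was 0.723 of that of the short isoform in control and 0.582 in knockdown, a ratio in which any factor common to a table cancels. The Gini index of the long isoform was higher than that of the short one by 0.117 in control and by 0.233 in knockdown. The maximum of the long isoform was 1.79 times that of the short one in control and 1.70 times in knockdown. Since the isoforms share sequence, these are not independent measurements, and the difference between them has no replicate error.

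The number of positions behind each value was recovered from the deposited digits and was 22723 for the long isoform and 3421 for the short one. The first is 20 fewer than the RefSeq span of the gene. Summed over positions, reactivity of the long isoform was 4412.6 in control cells and 3400.3 in knockdown cells, and that of the short isoform 918.9 and 879.9. The short isoform has 15.1% as many positions as the long one. Its sum was 20.8% of the long isoform's sum in control and 25.9% in knockdown.

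If the common stretch had the same reactivities in both rows, the remaining 19302 positions of the long isoform, downstream of the short isoform or absent from it, would have an average of 0.181 in control cells and 0.131 in knockdown cells, 1.39-fold lower. Their coefficient of variation would be 2.07 in control and 2.74 in knockdown. The maxima of the long isoform were above those of the short one and the remaining variance was positive in both conditions, so the summaries allow this reading. Whether the rows do share reactivities was not tested, since values per position were not analysed here and each row could have been scaled on its own.

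Because differences varied with transcript length, each isoform was also placed among transcripts of like length. Of the 2495 transcripts with 5000 or more positions, 91.2% had a higher Gini index in knockdown, so the direction of the long isoform was that of its class. The median Gini difference in the class was 0.015, and 59 transcripts exceeded the 0.055 of the long isoform. By coefficient of variation its difference of 0.427 lay within the middle 50% of the class, 0.151 to 0.523, at percentile 64.4. In average reactivity 135 transcripts of the class had a lower difference, while the class median was 0.011. The difference of its maximum, -0.072, ran against 87.4% of the transcripts in the class whose maxima differed.

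By positions the long isoform was number 13 in the tables. Among the 50 transcripts with the most positions, a number chosen after the values were seen, which ran from 17199 to 91647 positions, 47 had a higher Gini index in knockdown. The long NEAT1 isoform had the largest of these increases, with a median of 0.0090 over the 50. In control, however, 46 of the 50 had a higher Gini index than NEAT1, with a median of 0.927. They thus had less room to rise, since the index cannot exceed 1. In average reactivity 33 of the 50 were lower in knockdown, and 6 had a lower difference than NEAT1.

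**Figure D2:**
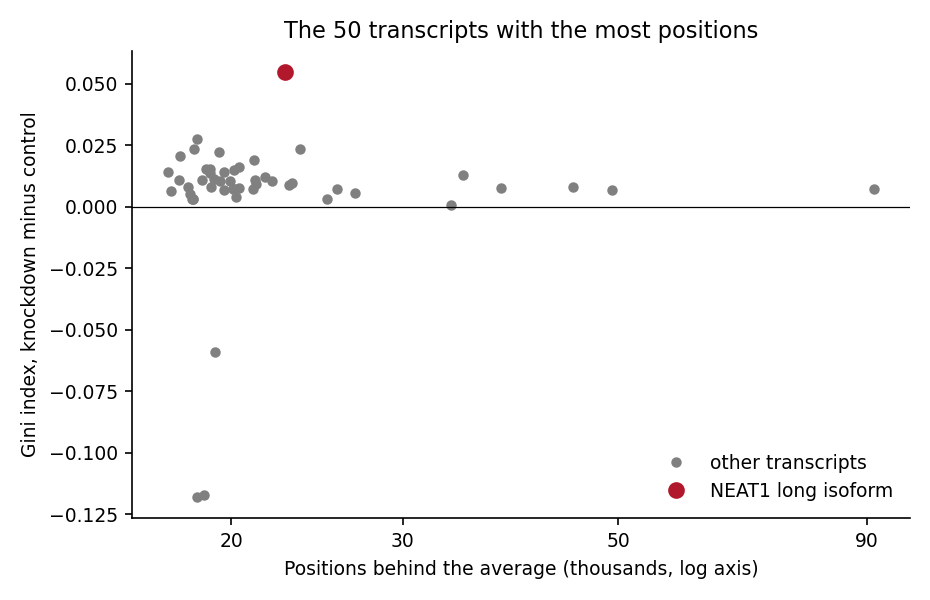
Difference in Gini index, knockdown minus control (vertical axis), against the number of positions behind the average (horizontal log axis, in units of 1000) for the 50 transcripts with the most positions, 1 point per transcript. The long NEAT1 isoform, at 22723 positions and 0.055, lies above the 49 others. In control 46 of the 50 had a higher Gini index than NEAT1 and thus less room to rise.

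For the short isoform the direction of the Gini difference was itself uncommon at its length. It was common among the transcripts of that length also alike in control, described below. Of 9324 transcripts with 2000 to under 5000 positions, 79.4% had a higher Gini index in knockdown, and the short isoform had a lower one. A lower average together with a more even spread was found in 83 of these transcripts, 0.890%, against 5.30% of all transcripts. The short isoform shows this combination on the deposited scale and with medians set equal. It rests on the sign of a small average difference, -0.011, that has no replicate error. Read on the control curve the difference was 0.036, but that reading uses the measured knockdown average only within the coefficient of variation. Of the 4608 transcripts of the class with a lower average, 2 others had a Gini decrease at least as large. The long isoform belonged to the commonest combination over all transcripts, a lower average and a more uneven spread, which 45.2% showed and 41.2% of its own class.

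**Figure D3:**
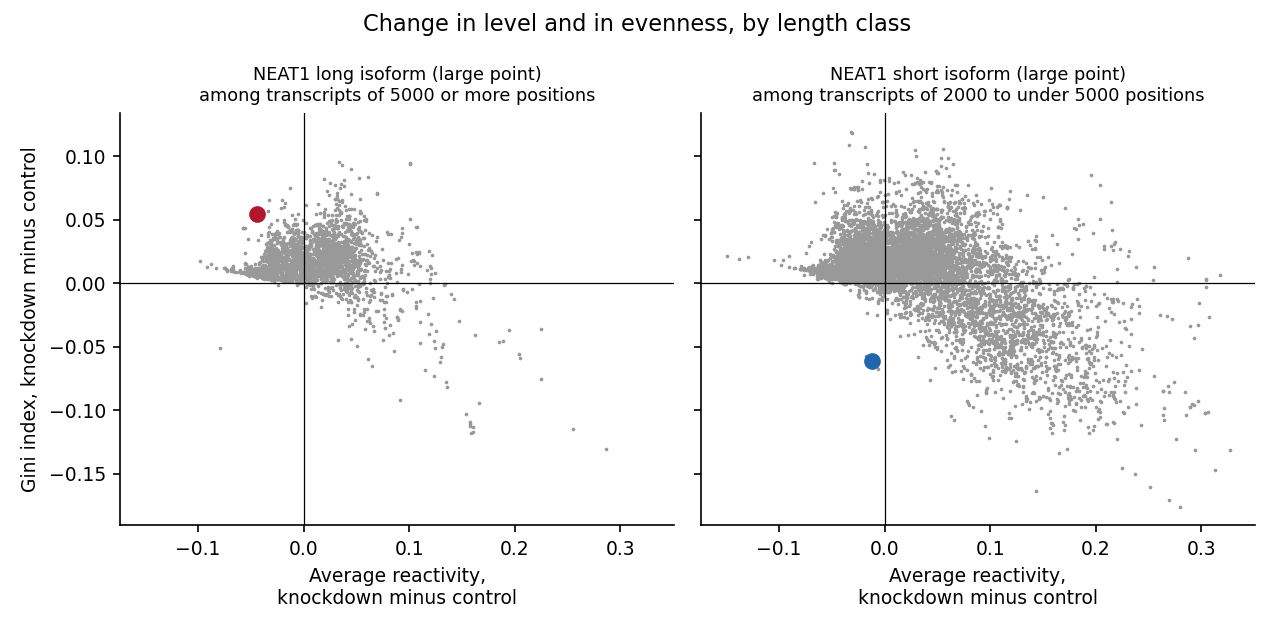
Difference in Gini index (vertical axis) against difference in average reactivity (horizontal axis, deposited scale), both knockdown minus control, 1 point per transcript of the length class of each isoform. The long isoform lies in the upper left field at -0.045 and 0.055, and the short isoform in the sparsely filled lower left field at -0.011 and -0.061.

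Across the tables the difference between conditions varied with the level in control, so the isoforms were compared with transcripts that were alike in control, a comparison chosen after the values were seen. Alike means the same length class, a control average within 5% and a control Gini index within 0.02. For the long isoform 160 transcripts met this. Their median average was 0.193 in control cells and 0.232 in knockdown cells. In 85.0% of them it was higher in knockdown, and 1 of the 160 had a lower difference than the long NEAT1 isoform. Their median Gini difference was 0.022, with 9 of the 160 above NEAT1.

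For the short isoform 287 transcripts were alike in control. Their median average was 0.266 in control cells and 0.399 in knockdown cells, with 95.1% of them higher, whereas the short isoform was at 0.257 in knockdown. A lower difference than that of the short isoform was found in 11 of the 287. The direction of its Gini index was shared, since 75.3% of the 287 were more even in knockdown, with a median difference of -0.031, and 67 had a lower difference than NEAT1. In standard deviation 97.2% of the 287 were higher in knockdown, and 2 had a lower difference than the short isoform. Both are among 3 of the 287 that are close neighbours of the short isoform, described below. Whether these overlap NEAT1 was not analysed here. Beside transcripts of like length that started alike, both isoforms thus had a low average in knockdown cells. Without the limit on length this was weaker. A lower average difference than the long isoform's was then found in 207 of 2984 transcripts alike in control. For the short isoform it was found in 229 of 1440.

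**Figure D4:**
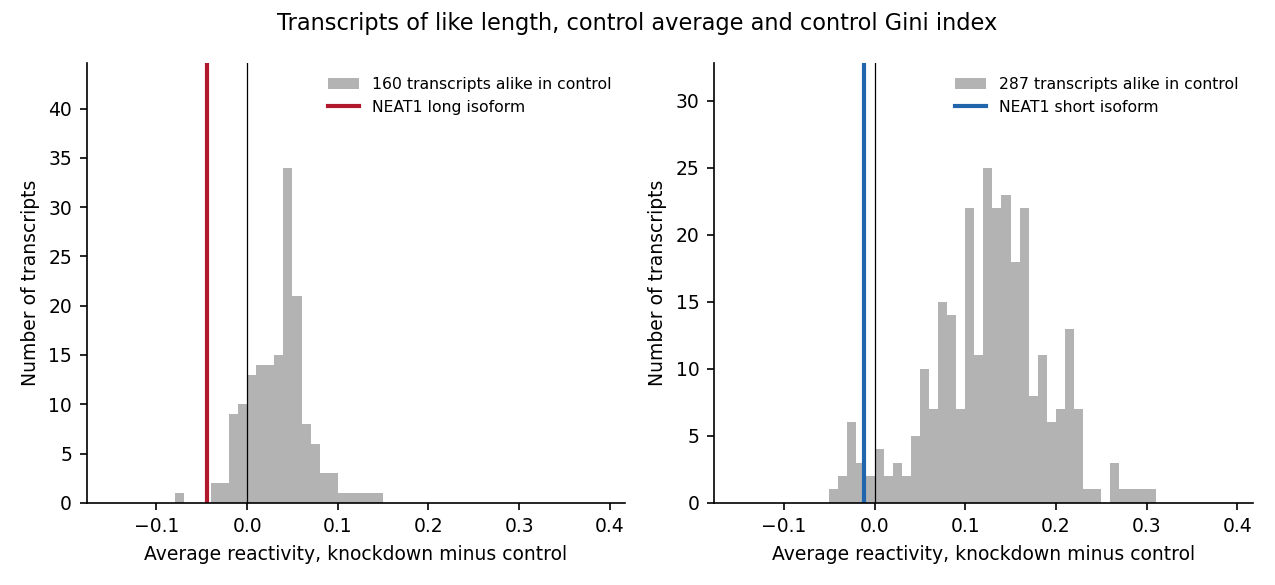
Number of transcripts (vertical axis) by difference in average reactivity, knockdown minus control (horizontal axis, deposited scale, steps of 0.01), for the 160 transcripts alike in control to the long isoform and the 287 alike to the short isoform. Coloured lines mark the isoforms at -0.045 and -0.011, with 1 of 160 and 11 of 287 transcripts below them.

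Transcripts with the most similar summary were sought over 8 values, the percentile ranks of the 4 measures in both conditions. The nearest to the short isoform was ENST00000601801.3, at a distance of 1.38 rank points. It had an average of 0.267 in control cells and 0.260 in knockdown cells and a Gini index of 0.692 and 0.625, with 3504 positions. In all, 4 transcripts lay within 5 rank points of the short isoform, a limit chosen after the distances were seen, with 1487 to 3504 positions, and the 2 others of its class that had a lower average and at least as large a Gini decrease were among them. The tables do not pair identifiers with genes, so whether these 4 overlap NEAT1 was not analysed here, and they cannot be counted as separate RNAs with the same pattern.

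The long isoform had no such close neighbour, with 0 transcripts within 5 rank points. The nearest was ENST00000428411.6 at 14.2 rank points, with an average of 0.181 in control cells and 0.155 in knockdown cells and a Gini index of 0.829 and 0.864, with 8783 positions. The short isoform lay 108 rank points from the long one, with 28596 transcripts nearer.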

How the data were processed

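NAI or DMSO was applied to HEK293T cells with or without TDP-43 knockdown, in 2 replicates each, and 500 ng of poly(A)-selected RNA per library was fragmented to about 300 nt, per the labels' protocols. Bowtie2 2.3.3.1, cutadapt 1.15 and the build hg38 are listed in the submitters' processing notes. Not given in the sources used here are the steps from stops to reactivities, their scale and a coverage filter. For each condition the authors deposited a table whose headers name 4 measures: the maximum, average and standard deviation are reactivity scores and the Gini index is a fraction. The word combined in the headers was taken to mean that replicates were combined, with DMSO as background. The knockdown columns begin with kd1, which the labels do not explain, so that they hold both knockdown replicates is an assumption.

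Members were matched by the identifier before the dot. Positions are the smallest number, from 20 up, at which the average and the Gini index give whole numbers in both tables (38313 transcripts had one, and the recovery was tested on simulated data); the smallest reactive share is the squared average over the mean square. Percentiles count ties by equal parts. Call limits were 1.1-fold and 1.5-fold. Named transcripts were the members and, for each, the nearest over 8 percentile ranks. The members, lists and comparisons were chosen with earlier results of these data known. Because the gene table holds 0 Ensembl identifiers, the lists of paraspeckle, speckle, noncoding and TARDBP transcripts were not analysed here. Computation used numpy 2.4.6 and pandas 2.3.3 under Python 3.11.15, with figures drawn in matplotlib 3.10.9.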

Additional observations from a re-analysis of the deposited data

How the results depend on the processing

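Values count as moved when they differ from the reported difference by over 25%, or from a reported percentile by over 10 points. With each measure set to an equal median in both conditions, the maximum difference of the short isoform turned from 0.035 to -0.138. Its average difference shrank to -0.0048 and its standard deviation difference grew to -0.108. The differences of the long isoform became -0.077 in standard deviation, -0.366 in maximum and 0.037 in Gini index. The factor differs between measures, so this is not a change of 1 reactivity scale. As a difference of percentile ranks, the maximum of the short isoform turned to -0.380 points and its Gini index to 2.20 points. With the knockdown average read from the control curve on coefficient of variation, the average difference was -0.032 in the long isoform. In the short isoform it turned to 0.036. This reading uses the measured knockdown average only within the coefficient of variation and takes the level from control transcripts. It therefore cannot decide the direction of either difference. Without the lowest 25% by level, the average difference of the short isoform moved from percentile 43.7 to 29.7 and the standard deviation difference of the long one from 36.4 to 25.0. In its own length class the long isoform was at percentile 24.7 in standard deviation and 7.30 in maximum, and the short isoform at 3.84 in Gini index. At least 1000 positions, no transcripts at the ceiling, identical transcripts once and the log2 ratio each left all 8 percentiles within 10 points. With narrower and wider windows for transcripts alike in control, 1.45% and 0.279% had a lower average difference than the long isoform, and 3.96% and 3.33% than the short one. On standardised log2 values the nearest transcript to the short isoform was the same and that to the long one was another. Sums over 20 more positions gave 0.181 and 0.130 for the rest of the long isoform; the planned shift of positions by rounding was not run. The curve, the length classes as an alternative, the windows and the sums were chosen after seeing the data. No paired analysis was possible because neither table gives values for single replicates, which also left no replicate to take out.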
